A study of Mus musculus with 4 samples.

Results

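The 10 genes described here encode the transcription factors of naive pluripotency: Nanog, Tbx3, Tcfcp2l1, Esrrb, Klf2, Klf4, Klf5, Prdm14, Nr0b1 and Zfp42. They were chosen by name, as a functional group, with earlier results of these data known. All 10 were found among the 22138 genes of the deposited table. Tcfcp2l1 is the older symbol of the gene now called Tfcp2l1. RNA was sequenced from TT2 mouse embryonic stem cells (labelled female, C57BL/6xCBA), a line grown here without feeder cells in medium with serum and LIF. One group received control siRNA (n = 2) and the other siRNA against Hnrnpk (n = 2), each given at 100 nM and again at 50 nM after 24 hours, with harvest about 72 hours after that. All 4 libraries come from this 1 line, and hnRNP K was depleted, not deleted. The study describes the libraries of a group as biological replicates, and the sources used here do not say whether these were separate cultures. P-values here measure only the spread between these libraries, which may be technical.

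Naive pluripotency is the state of the epiblast before implantation, and embryonic stem cells hold it through a network of transcription factors that activate one another around Pou5f1 and Sox2. LIF, through its receptor and STAT3, raises Klf4, Tcfcp2l1 and, less directly, Tbx3. WNT signalling and inhibition of GSK3 free Esrrb, Nanog, Klf2 and Tcfcp2l1 from the repressor Tcf7l1, and ERK signalling pushes cells out of the state. Several of the factors can replace one another, and their loss marks the passage to formative and primed pluripotency.

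After Hnrnpk siRNA, 7 of the 10 factors were higher and 0 were lower. Tbx3 was 4.01 times and Tcfcp2l1 2.72 times its control mean, and these were the 2 factors that changed by at least 2-fold. Nanog was 1.76 times its control mean. Prdm14, Nr0b1, Klf2 and Klf5 rose by less, to 1.11 to 1.34 times the control mean, and Esrrb, Klf4 and Zfp42 were not called. The same test called 32.2% of the 12486 genes tested higher, 35.0% lower and 67.2% in either direction. The number of factors called in either direction is close to that background, and their count higher is above it. The factors were chosen with earlier results of these data known, so this comparison describes them and is not a test. The members' median log2 change was 0.31, beside -0.015 over all genes tested. Calls are those with a Benjamini-Hochberg adjusted p below 0.05 in limma on log2(RPKM + 0.5), where RPKM is a read count divided by gene length and library size. No factor was lower at an unadjusted p under 0.05 either. All 10 passed the filter of a mean of at least 0.5 RPKM, and none depended on 1 group to do so, since the lowest group mean was 6.27 RPKM.

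The targeted gene and the identity of the cells were checked first. Hnrnpk stood at 236 and 226 RPKM with control siRNA and at 68.0 and 70.5 RPKM with Hnrnpk siRNA (log2 change -1.73, SE 0.0629, limma adjusted p = 6.59e-08). Pou5f1 and Sox2, the factors that define pluripotent cells, ranked at the 98.8th and 97.5th percentile of mean level among the genes tested. The relative depth of the libraries, read from the commonest ratio between their lowest values, was 0.982 in control replicate 2 and 0.891 and 0.882 in Hnrnpk siRNA replicates 1 and 2, with control replicate 1 set to 1. In bulk RNA, fewer cells of a type and less RNA per cell cannot be told apart, and this holds for every level given here.

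**Figure D1:**
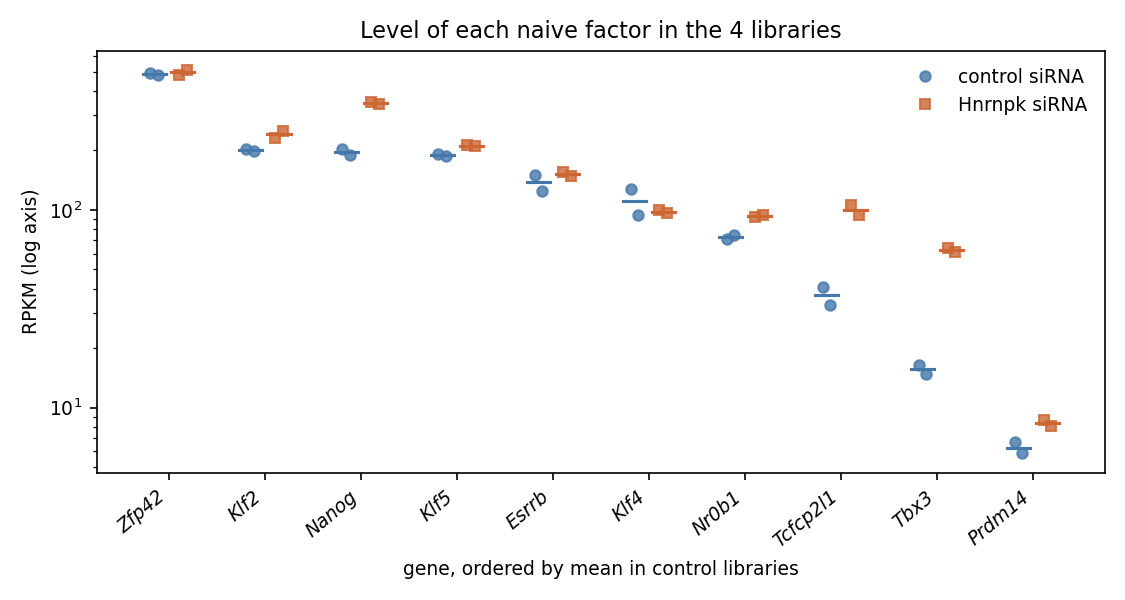
RPKM of each naive factor (y axis, log scale) in the 4 libraries, ordered by control mean; circles are control libraries, squares Hnrnpk siRNA libraries, and bars the mean of each pair. The pairs of squares sit above the pairs of circles for 7 genes, furthest for Tbx3 and Tcfcp2l1, and overlap for Esrrb, Klf4 and Zfp42.

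In the control libraries the factors spanned a wide range of levels per length. Zfp42 was highest at 487 ± 9.03 RPKM (SD, n = 2), 2.43 times the next gene. Klf2, Nanog and Klf5 followed at 201, 197 and 190 RPKM, and neighbours in this order overlapped between libraries. Esrrb (137 RPKM) and Klf4 (111 RPKM) overlapped as well. Below them Nr0b1 (72.8 RPKM), Tcfcp2l1 (36.9 RPKM), Tbx3 (15.6 RPKM) and Prdm14 (6.27 RPKM) were each separated from their neighbours. Hnrnpk siRNA changed the order: Nanog stood clear of Klf2 and Klf5 as the second gene at 348 RPKM, 1.45 times Klf2, and Tcfcp2l1 reached the level of Klf4, with overlapping libraries. Tbx3 stayed ninth, but its distance to Prdm14 grew from 2.49-fold to 7.46-fold. Summed over the 10 genes, the level was 1502 and 1405 RPKM with control siRNA and 1801 and 1816 RPKM with Hnrnpk siRNA, which is 0.418% and 0.387% of all RPKM against 0.477% and 0.465%.

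Nanog encodes the homeodomain protein that holds self-renewal when its level is raised, even with little LIF. It was read at 204 and 190 RPKM after control siRNA and at 353 and 342 RPKM after Hnrnpk siRNA. Both Hnrnpk siRNA libraries lay far above both control libraries. This is a log2 change of 0.82 (SE 0.0682, 95% interval 0.67 to 0.97, limma adjusted p = 6.56e-06), higher than 93.9% of the changes of all genes tested. Relative to Pou5f1 its level went from 0.710 and 0.632 to 1.44 and 1.20, and relative to Sox2 from 0.881 and 0.975 to 2.40 and 2.35, in replicates 1 and 2. The gene (ENSMUSG00000012396) lies on chromosome 6 (GRCm38, 122707489 to 122714633, plus strand). Of its longest coding transcript, 20.4% is shared at 95% identity or more with stretches of 57 other genes, 1 of them the processed pseudogene Nanog-ps1, so part of its level is uncertain.

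Promoters are shown for the factors whose 250 bases before the start site held a motif of the network, to set sequence beside response. RefSeq promoters (GRCm38.p6) were matched for 7 of the 10 factors, with 9 start sites; Tbx3, Klf5 and Prdm14 were not matched. Both strands were searched for the motifs bound by KLF factors (GGGNGTGG), ESRRB (AAGGTCA), POU factors (the octamer ATGCAAAT), SOX factors (AACAATG), STAT3 (TTCCNGGAA), T-box factors (AGGTGTGA) and PRDM14 (GGTCTCTAA), for the TFCP2L1 motif (a pair of CCAG with 6 bases between) and for the composite OCT4-SOX2 motif. The last was chosen because it is known from the Nanog promoter. The capitals mark the KLF, octamer and OCT4-SOX2 matches in the windows before the first listed start of Nanog (chr6:122707239-122707488, plus strand), Tcfcp2l1 (chr1:118627695-118627944, plus strand) and Zfp42 (chr8:43307010-43307259, minus strand), each written 5′ to 3′:
Nanog: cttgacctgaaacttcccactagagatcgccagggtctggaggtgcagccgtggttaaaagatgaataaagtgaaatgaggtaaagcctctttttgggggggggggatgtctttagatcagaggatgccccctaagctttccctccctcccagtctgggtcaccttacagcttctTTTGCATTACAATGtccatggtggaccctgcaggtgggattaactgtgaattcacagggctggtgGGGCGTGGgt
Tcfcp2l1: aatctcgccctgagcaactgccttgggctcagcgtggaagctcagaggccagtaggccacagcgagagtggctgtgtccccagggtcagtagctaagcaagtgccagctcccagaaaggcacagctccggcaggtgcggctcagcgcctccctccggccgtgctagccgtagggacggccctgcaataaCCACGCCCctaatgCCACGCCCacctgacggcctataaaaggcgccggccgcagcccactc
Zfp42: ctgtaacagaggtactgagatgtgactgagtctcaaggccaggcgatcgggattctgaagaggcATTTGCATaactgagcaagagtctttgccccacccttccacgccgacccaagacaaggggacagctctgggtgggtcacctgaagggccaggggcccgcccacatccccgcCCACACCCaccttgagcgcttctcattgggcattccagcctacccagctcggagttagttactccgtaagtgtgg

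These 3 genes differed in response, with Tcfcp2l1 and Nanog called higher and Zfp42 not called. Nanog held the OCT4-SOX2 motif 75 bases and a KLF match 10 bases before the start, Tcfcp2l1 a pair of KLF matches 61 and 47 bases before it, and Zfp42 a KLF match and an octamer 75 and 186 bases before it, counted to the first base of each match. A KLF match was present in 15.9% of all 32851 promoter windows of this length, the octamer in 1.60% and the OCT4-SOX2 motif in 0.00609%, where both matches were the overlapping windows of Nanog. Since that motif was taken from the Nanog promoter, its share draws no contrast between Nanog and other genes. The ESRRB, SOX, STAT3, TFCP2L1, T-box and PRDM14 motifs, held by 4.08%, 3.29%, 0.913%, 2.78%, 1.12% and 0.240% of windows, had no match in the 9 windows of these factors. Esrrb, Klf2, Klf4 and Nr0b1 held none of the motifs. A match is a run of letters and not a measured site.

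Tcfcp2l1 encodes a CP2-family factor that acts downstream of LIF and STAT3. It stood at 40.9 and 32.9 RPKM with control siRNA and at 106 and 94.2 RPKM with Hnrnpk siRNA. The spread within each pair was wide for these data, but the pairs were far apart. On the log2 scale the rise was 1.44 (SE 0.101, 95% interval 1.21 to 1.66, limma adjusted p = 2.35e-06). Relative to Esrrb, which shares many of its binding sites, its level went from 0.274 and 0.263 to 0.686 and 0.634. The gene (ENSMUSG00000026380) lies on chromosome 1 (GRCm38, 118627945 to 118685168, plus strand). The snRNA gene Gm23497 overlaps its exons on the same strand and shares 1.4% of its transcript, so reads of both cannot be told apart there.

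Tbx3 encodes a T-box repressor that sustains self-renewal and, at high level, is also tied to extraembryonic endoderm. Its level was 16.4 and 14.8 RPKM after control siRNA and 64.0 and 61.1 RPKM after Hnrnpk siRNA. The groups stood wide apart, and the log2 change of 1.97 (SE 0.0703, 95% interval 1.81 to 2.13, limma adjusted p = 6.11e-08) was above 99.3% of those of all genes tested. Tbx3 (ENSMUSG00000018604) lies on chromosome 5 (GRCm38, 119670669 to 119684724, plus strand). The antisense gene Tbx3os1 overlaps its exons and shares 2.49% of its transcript, and since no source used here gives the strand setting of the counting, reads of both cannot be told apart there.

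Klf4, the Krüppel-like factor that answers to LIF most directly, did not follow Tcfcp2l1 and Tbx3. It stood at 127 and 94.2 RPKM with control siRNA and at 99.5 and 96.2 RPKM with Hnrnpk siRNA. Both Hnrnpk siRNA values lay between the control values. The log2 change was -0.16 (SE 0.116, 95% interval -0.42 to 0.10, limma adjusted p = 0.246). Control replicate 1 decided its sign: without it the change was 0.06 (adjusted p = 0.574), and without control replicate 2 it was -0.37 and called lower (adjusted p = 0.00118).

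Klf2 and Klf5 encode the other Krüppel-like factors of the naive state, which can cover for Klf4. Klf2 was at 202 and 199 RPKM after control siRNA and at 230 and 251 RPKM after Hnrnpk siRNA, with no overlap. Its log2 change was 0.26 (SE 0.0687, 95% interval 0.11 to 0.41, limma adjusted p = 0.00762). That call was lost without Hnrnpk siRNA replicate 2 (0.20, adjusted p = 0.052), and the change was 0.50 with the trend of each library on GC content removed and 0.15 under quantile normalization. Klf5 was at 192 and 188 RPKM after control siRNA and at 212 and 211 RPKM after Hnrnpk siRNA, again with no overlap. Its log2 change of 0.16 (SE 0.0625, 95% interval 0.02 to 0.30, limma adjusted p = 0.0484) was close to the threshold and was called under 6 of 13 other settings, with a change of 0.04 under quantile normalization. The ratio of Klf2 to Klf4 was 1.59 and 2.12 with control siRNA and 2.31 and 2.61 with Hnrnpk siRNA, and the ratio of Klf5 to Klf4 was 1.51 and 1.99 against 2.13 and 2.19. The Klf2 (ENSMUSG00000055148), Klf4 (ENSMUSG00000003032) and Klf5 (ENSMUSG00000005148) genes lie on chromosomes 8 (72319033 to 72321656), 4 (55527143 to 55532466) and 14 (99298691 to 99315036) of GRCm38, and none shares a stretch of 100 bases at 95% identity with another gene.

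Esrrb encodes an orphan nuclear receptor that binds with Nanog and can stand in for it. It stood at 150 and 125 RPKM with control siRNA and at 155 and 149 RPKM with Hnrnpk siRNA. The groups overlapped slightly. The log2 change was 0.15 (SE 0.0859, 95% interval -0.04 to 0.34, limma adjusted p = 0.146), so a rise of the size seen for Nanog lay outside the interval. Without control replicate 1 the change was 0.28 and called (adjusted p = 0.011), and with GC trends removed it was 0.25 and called (adjusted p = 0.0232); under quantile normalization it was 0.04, and over the 13 other settings the adjusted p ran from 0.011 to 0.831. Esrrb (ENSMUSG00000021255) lies on chromosome 12 (GRCm38, 86361117 to 86521628, plus strand).

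Nr0b1 encodes DAX1, an orphan nuclear receptor without a usual DNA-binding domain that binds Esrrb, Nr5a2 and OCT4 and restrains them. Its level was 71.2 and 74.4 RPKM after control siRNA and 91.8 and 94.1 RPKM after Hnrnpk siRNA. The libraries of each group were close together and the groups apart. Nr0b1 rose by 0.35 on the log2 scale (SE 0.0617, 95% interval 0.21 to 0.49, limma adjusted p = 0.000721). Nr0b1 (ENSMUSG00000025056) lies on chromosome X (GRCm38, 86191764 to 86195947, plus strand).

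Prdm14 encodes a PR-domain protein that represses FGF receptor signalling and the de novo DNA methyltransferases. It was the lowest of the factors, at 6.68 and 5.86 RPKM with control siRNA and 8.69 and 8.08 RPKM with Hnrnpk siRNA. The groups did not overlap. Prdm14 rose by 0.39 on the log2 scale (SE 0.0859, 95% interval 0.20 to 0.59, limma adjusted p = 0.00263), a little above that of Nr0b1 and with an interval that covers it. Prdm14 (ENSMUSG00000042414) lies on chromosome 1 (GRCm38, 13113457 to 13127163, minus strand).

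Zfp42 encodes REX1, a zinc finger protein used as a reporter of the naive state because its level drops early when cells leave it. It stood at 493 and 481 RPKM with control siRNA and at 480 and 510 RPKM with Hnrnpk siRNA. The Hnrnpk siRNA values enclosed the control values. The log2 change was 0.02 (SE 0.0715, 95% interval -0.14 to 0.18, limma adjusted p = 0.787), and no setting called it. Its direction was not stable: under quantile normalization the change was -0.12, and without Hnrnpk siRNA replicate 2 it was -0.02. The gene (ENSMUSG00000051176) lies on chromosome 8 (GRCm38, 43295063 to 43306980, minus strand), and 26.9% of its transcript is shared at up to 98.7% identity with the processed pseudogene Zfp42-ps1. Relative to Zfp42, the level of Nanog went from 0.413 and 0.396 to 0.736 and 0.670.

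**Figure D2:**
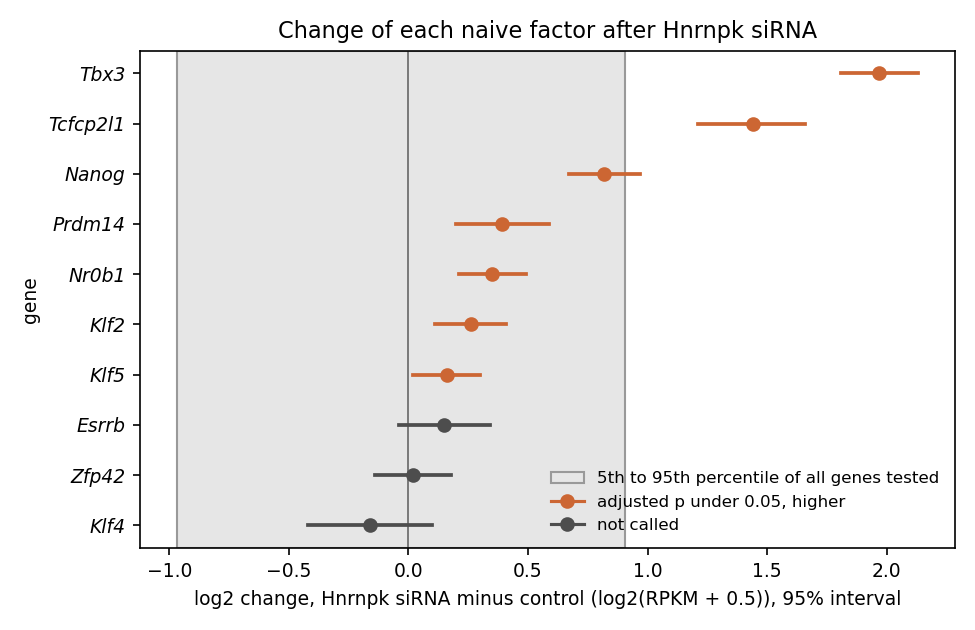
Log2 change of each naive factor (x axis, Hnrnpk siRNA minus control on log2(RPKM + 0.5)) with its 95% interval from limma; the grey band spans the 5th to 95th percentile of all genes tested, -0.97 to 0.91. Tbx3 and Tcfcp2l1 lie above the band, and the intervals of Esrrb, Zfp42 and Klf4 cross 0.

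The groups did not overlap for 7 of the 10 factors, with both Hnrnpk siRNA libraries above both control libraries in all 7 and below them in none. Over all genes tested the groups did not overlap in 84.7%, with both Hnrnpk siRNA libraries above in 41.2% and below in 43.5%. With 2 libraries a group, the smallest p that exact permutation allows for 1 gene is 0.333, so each call rests on the variance that limma shares across genes.

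**Figure D3:**
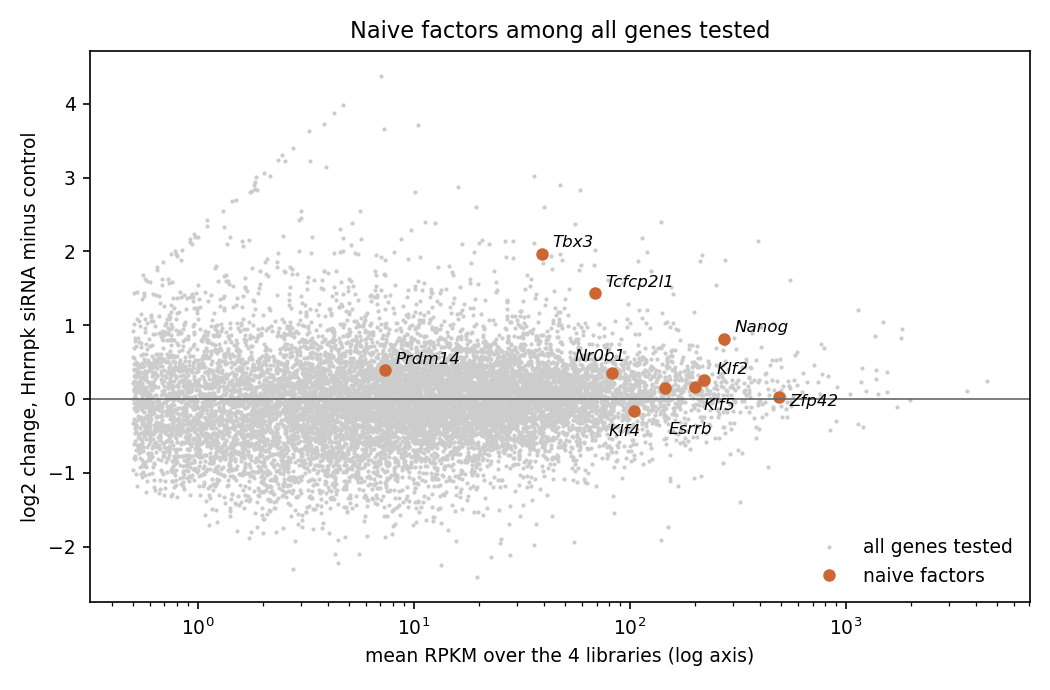
Log2 change (y axis, Hnrnpk siRNA minus control) against mean RPKM over the 4 libraries (x axis, log scale) for the 12486 genes tested, in grey, with the naive factors in orange. Prdm14 lies in the middle of the range of levels (44.1th percentile) and the other factors at or above the 82.7th percentile, and Tbx3 and Tcfcp2l1 lie above most genes of their level.

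Around these factors, the other genes known for naive cells moved in both directions. Of 18 tested, 9 were higher and 5 lower, with a median log2 change of 0.06. Among all genes tested, 32.2% were higher and 35.0% lower. This list and those that follow were chosen with earlier results of these data known. Dppa2, a chromatin factor of the early embryo, rose from 30.6 ± 2.89 to 61.9 ± 0.816 RPKM (± SD, n = 2 per group). The adhesion gene Jam2 rose from 22.2 ± 0.906 to 40.7 ± 1.17 RPKM, Dppa5a, an RNA-binding protein gene, from 1300 ± 31.0 to 2310 ± 203 RPKM, and the F-box gene Fbxo15 from 143 ± 1.62 to 206 ± 0.926 RPKM (± SD, n = 2 per group). Dppa3, which encodes the maternal factor STELLA, fell from 72.4 ± 2.57 to 40.7 ± 2.10 RPKM (± SD, n = 2 per group). The log2 changes of these 5 were 1.01, 0.86, 0.83, 0.52 and -0.82, and the highest of their limma adjusted p was 5.53e-05.

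Of the 3 core factors, 1 was called lower and 0 higher, beside 35.0% and 32.2% of all genes tested. Sox2 was at 231 and 195 RPKM after control siRNA and at 147 and 146 RPKM after Hnrnpk siRNA, a difference of -0.53 in log2 units (SE 0.0833, adjusted p = 0.000337 by limma). Pou5f1 was at 287 and 301 RPKM against 245 and 286 RPKM (log2 change -0.15, limma adjusted p = 0.137), with groups that nearly met. Its size turned on single choices: it was -0.26 and called without Hnrnpk siRNA replicate 2 (adjusted p = 0.0188) and -0.23 and called under quantile normalization (adjusted p = 0.0109), but -0.04 without Hnrnpk siRNA replicate 1 (adjusted p = 0.711) and -0.01 with GC trends removed (adjusted p = 0.898). Sall4, a zinc finger partner of both, had a log2 change of 0.15 (limma adjusted p = 0.0729). The list of these 3 had a median of -0.15. Under 3 of the 13 other settings (without control replicate 2, with GC trends removed, and with the replicate number as a block) 1 core factor was called higher.

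Genes of the LIF pathway, which acts above Tcfcp2l1, Tbx3 and Klf4, were mostly lower. Of 5, 4 fell and 1 rose, with a median log2 change of -0.79. The counts were the same under all 13 other settings. Both counts and median include Socs3, an output of the pathway and not an input to it. The shares over all genes tested were 35.0% lower and 32.2% higher. Socs3, the feedback inhibitor that STAT3 induces, fell from 77.8 ± 10.6 to 35.3 ± 0.335 RPKM (± SD, n = 2 per group; log2 change -1.12, limma adjusted p = 4.23e-06). The LIF receptor Lifr fell from 17.1 ± 0.0592 to 8.55 ± 0.684 RPKM and its partner Il6st, which encodes gp130, from 19.1 ± 1.14 to 10.8 ± 0.417 RPKM (± SD, n = 2 per group), with log2 changes of -0.96 and -0.79. Stat3 itself fell from 24.2 ± 1.01 to 19.0 ± 0.452 RPKM (± SD, n = 2 per group; log2 change -0.34, limma adjusted p = 0.00133), and the kinase gene Jak1 rose from 10.8 ± 0.721 to 14.2 ± 0.563 RPKM (log2 change 0.38, limma adjusted p = 0.00152). In the same libraries Tcfcp2l1, Tbx3 and Klf4 had log2 changes of 1.44, 1.97 and -0.16. Only transcripts were measured, and the part of the LIF input in these changes was not tested.

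Of 11 genes of the WNT and ERK inputs, 2 were higher and 3 lower, with a median of 0.06. The same calls over all genes tested were 32.2% higher and 35.0% lower. The kinase genes Mapk3, which encodes ERK1, and Gsk3a fell from 73.7 and 69.5 to 43.9 and 44.3 RPKM and from 98.1 and 91.9 to 64.3 and 67.0 RPKM, with log2 changes of -0.69 and -0.53. Spry4, a feedback inhibitor induced by ERK, had a log2 change of -0.57, and Ctnnb1, which encodes beta-catenin, and Dusp6, a phosphatase of ERK, had changes of 0.34 and 0.23. The highest limma adjusted p of these 5 was 0.0365, and between 1 and 3 genes of the list were called higher over the 13 other settings.

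Repressors of the network and drivers of exit split evenly, 4 of 12 higher and 4 lower, with a median of 0.04. Both counts were close to the shares of all genes tested, 32.2% higher and 35.0% lower. Tcf7l1, the repressor of the naive factors that WNT relieves, stood at 58.4 and 59.1 RPKM after control siRNA and at 59.9 and 58.3 RPKM after Hnrnpk siRNA, with overlapping groups (log2 change 0.01, 95% interval -0.13 to 0.14, limma adjusted p = 0.904). Folliculin, which keeps TFE3 out of the nucleus and so allows exit, is encoded by Flcn, whose level rose from 18.5 ± 1.37 to 43.1 ± 0.452 RPKM (± SD, n = 2 per group; log2 change 1.20, limma adjusted p = 8.76e-07). Of the genes of its partners, Fnip1 rose (log2 change 0.65) and Fnip2 fell (-0.64). Rbpj, the Notch effector, rose (0.47), and Tcf3, which encodes E2A, fell (-0.56). The highest limma adjusted p of these 4 was 0.00025.

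The formative and primed genes were mostly lower. Of 16 tested, 10 fell and 2 rose, with a median log2 change of -0.42. Over all genes tested, 35.0% were lower and 32.2% higher. Dnmt3b, a de novo DNA methyltransferase that rises when cells leave the naive state, fell from 87.6 ± 8.42 to 39.3 ± 2.14 RPKM (± SD, n = 2 per group; log2 change -1.14). Zic2, a zinc finger factor of primed cells, fell from 11.4 ± 0.736 to 3.90 ± 0.234 RPKM, Sox4 from 12.5 ± 0.712 to 4.21 ± 0.316 RPKM and the POU factor gene Pou3f1 from 7.62 ± 0.570 to 3.38 ± 0.0902 RPKM (± SD, n = 2 per group), with log2 changes of -1.44, -1.46 and -1.06. Nodal, a TGF-beta family ligand, went the other way, from 19.4 ± 0.234 to 67.3 ± 3.73 RPKM (± SD, n = 2 per group; log2 change 1.77), and the highest limma adjusted p of these 5 genes was 4.67e-06. Otx2, the homeobox factor that drives the formative state, was the other gene called higher, with a log2 change of 0.44; it was named after its value was seen. Fgf5 was below the filter, at 0.0594 and 0.0689 RPKM against 0.187 and 0.214 RPKM.

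**Figure D4:**
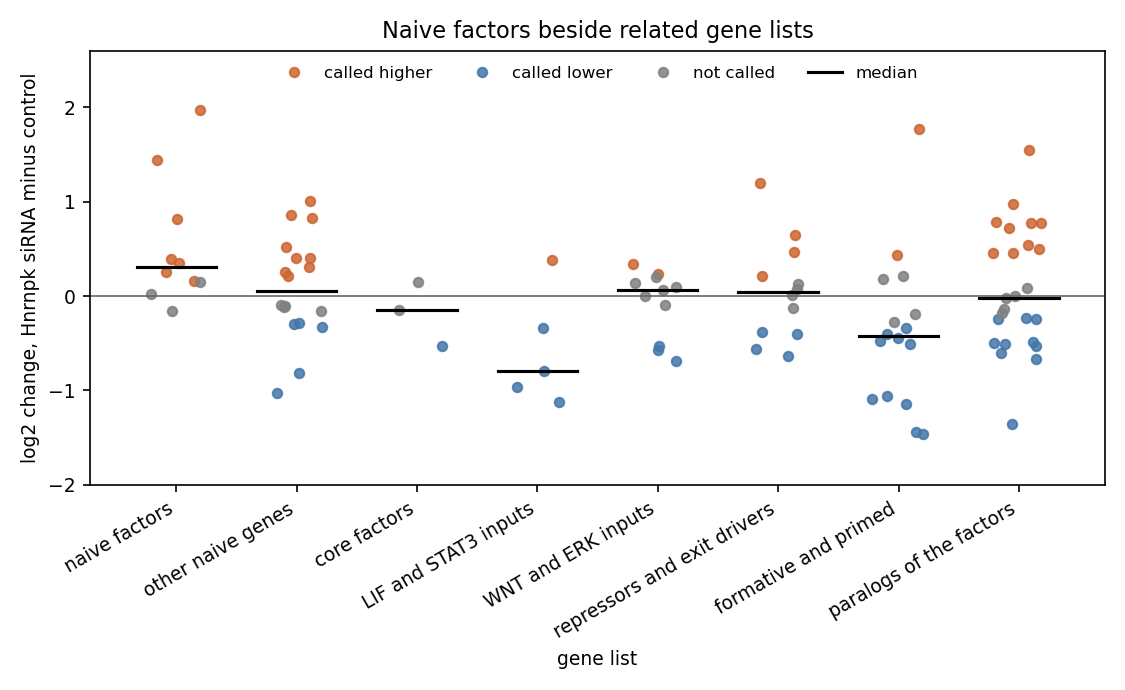
Log2 change (y axis, Hnrnpk siRNA minus control) of each tested gene in the naive factors and in 7 related lists; orange is called higher, blue called lower, grey not called, and the bar is the median of a list. The medians are 0.31 for the naive factors, -0.79 for the LIF and STAT3 inputs (Socs3 included) and -0.42 for the formative and primed genes.

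Markers of other cells moved with the same comparison, in which 32.2% of all genes tested were higher and 35.0% lower. For the two-cell-like state, Tmem92 was not matched by symbol. The summed level of the 9 genes in the table was 1.12 to 1.22 RPKM with control siRNA. It was 49.6 to 58.5 RPKM with Hnrnpk siRNA. All 8 of these genes that were tested had a control mean under 0.5 RPKM and passed the filter through Hnrnpk siRNA alone, so their being higher was set by the filter and no count of calls is given; Tdpoz4 was listed at 0 in control replicate 1. For primitive endoderm, 8 of 10 tested were higher (1 of them, Pdgfra, passed the filter through Hnrnpk siRNA alone) and 1 lower. The sum of 12 went from 180 to 182 RPKM to 315 to 328 RPKM, and most of it was Sparc, with means of 145 and 241 RPKM. Gata6, a rival of Nanog in the inner cell mass, stood at 0.643 ± 0.110 and 13.9 ± 0.319 RPKM (± SD, n = 2 per group). For trophectoderm, Tfap2a and Tfap2c were not matched by symbol, and 7 of 7 tested were higher. Below the filter, Elf5 went the other way (0.105 and 0.109 to 0.0608 and 0.0705 RPKM), while Cdx2 and Krt7 were higher. The sum of 10 went from 36.1 to 41.6 RPKM to 77.8 to 82.9 RPKM. Its largest parts were the keratin genes Krt8 (means of 12.3 and 22.4 RPKM) and Krt18 (17.4 and 32 RPKM). Eomes is counted here and again under mesoderm and ectoderm. For mesoderm and ectoderm, Sox1 was not matched by symbol. Of the genes tested, 3 of 6 were higher (1 of them, Gsc, through the same filter) and 3 lower. The sums were 8.70 to 9.03 RPKM with control siRNA and 9.84 to 10.7 RPKM with Hnrnpk siRNA. Markers of fibroblasts or feeder cells were low, with a sum of 8.79 to 10.4 RPKM with control siRNA and 5.05 to 5.31 RPKM with Hnrnpk siRNA, and 5 of 8 were below 0.5 RPKM in every library. No marker was at 0 in all 4 libraries. The part of these cells or states in the levels of the naive factors was not tested.

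**Figure D5:**
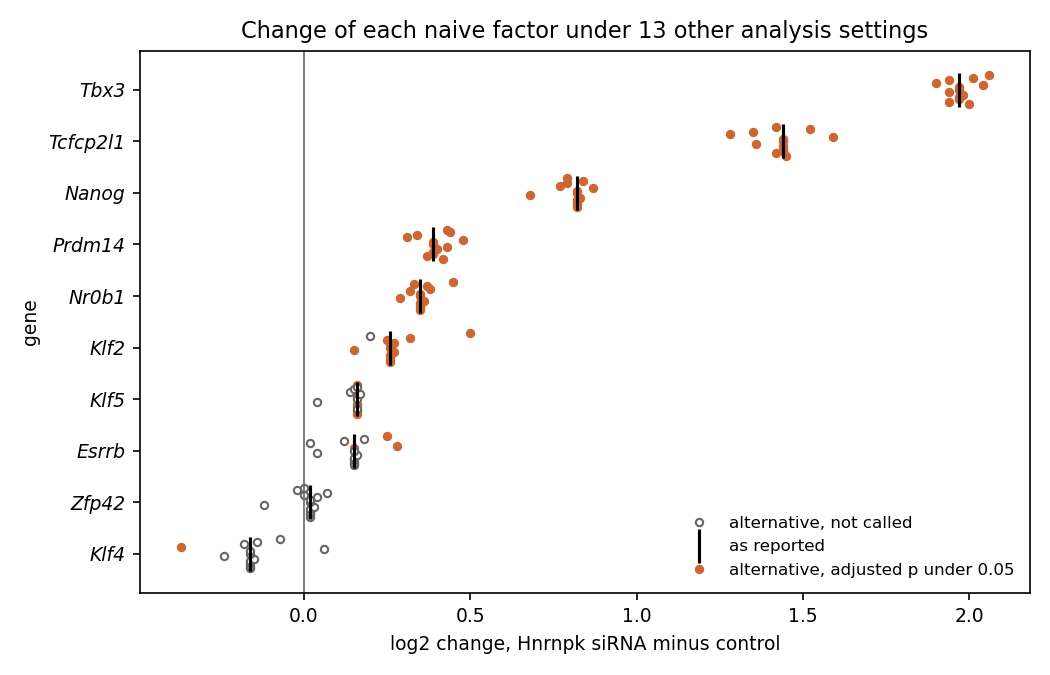
Log2 change of each naive factor (x axis, Hnrnpk siRNA minus control) as reported (black bar) and under 13 other settings (points; filled at an adjusted p under 0.05, open otherwise). Tbx3 (1.90 to 2.06), Tcfcp2l1 (1.28 to 1.59), Nanog (0.68 to 0.87), Prdm14 and Nr0b1 are filled throughout, with Klf2 filled in 12 of 13, Klf5 in 6, Esrrb in 3, Klf4 in 1 and Zfp42 in 0.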

How the data were processed

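RNA-seq of 4 libraries was used, 2 for each siRNA. The values are RPKM as deposited by the authors, 1 column for each library in 1 table; per the submitters' processing notes BWA, SAMtools and the mm9 build were used, and the counting tool and annotation were not given in the sources used here. Library labels name both ribosomal RNA depletion and poly(A) selection.

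The 12486 of 22138 genes whose mean reached 0.5 RPKM were compared on log2(RPKM + 0.5) with limma 3.58.1 in R 4.3.3 (mean-variance trend, two-sided, Benjamini-Hochberg over all genes tested); a change on this scale understates that of low genes. The procedure was run on simulated data with independent noise drawn from the fitted variances. That checks the calculation and cannot show whether the spread between these libraries is technical. RPKM gives no read counts, so absolute depth is unknown and no count model was used.

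Members and lists were chosen with earlier results of these data known. Up to 5 called genes of each list, lowest p first, up to 3 markers of a cell type, all members, Hnrnpk, Pou5f1, Sox2 and Stat3 were named, and others only where a sentence says so or a motif, copy or list turns on them. No genes of similar pattern were sought, since 4 libraries in 2 groups only restate the group difference. Where 3 list symbols had more than 1 row, the identifier with that symbol in GENCODE was used. Positions are from GENCODE M21 (GRCm38) and may differ from the annotation the authors used; copies were found with BLAST 2.17.0 (95% identity, at least 100 bases).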

Additional observations from a re-analysis of the deposited data

How the results depend on the processing

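The 13 alternatives were quantile normalization, median-ratio scaling, no mean-variance trend, a filter at 1 RPKM or none, an added 0.1 or 1 RPKM, a replicate block, GC trends removed, and each library left out in turn. Of 130 values of the 10 factors, 115 kept their direction and call, 8 lost the call, 4 gained one and 3 changed sign. Those that changed sign were Klf4 without control replicate 1 (0.06) and Zfp42 under quantile normalization (-0.12) and without Hnrnpk siRNA replicate 2 (-0.02); the cause was not tested. Leaving out 1 library gave -0.37 to 0.06 for Klf4 and -0.02 to 0.07 for Zfp42. Between 5 and 8 factors were called higher. The count called lower was 0 except without control replicate 2, where Klf4 made it 1, so leaving out 1 library gave 0 to 1. The median log2 change of the factors, 0.31 as reported, was 0.22 under quantile normalization and 0.44 with GC trends removed. Tbx3, Tcfcp2l1, Nanog, Prdm14 and Nr0b1 were called under all 13. The replicate numbers of the 2 groups are not stated to mark shared cultures. Over all genes tested, same-numbered libraries did not deviate together (r = 0.027). Among the factors, Nanog, Tbx3, Tcfcp2l1, Esrrb, Klf4, Klf5 and Prdm14 were lower in replicate 2 of both groups, and Nr0b1 was higher. Klf2 and Zfp42 differed in direction between the groups. The replicate block lowered the SE of Tcfcp2l1 (0.101 to 0.0659) and Klf4 (0.116 to 0.0741). It raised that of Klf5 (0.0625 to 0.0647) and Nr0b1 (0.0617 to 0.064). With the block 8 factors were called higher, Esrrb being added at a limma adjusted p of 0.0478. Over all genes, 4162 were then called higher and 4460 lower, against 4025 and 4371.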

Other observations

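Paralogs of the naive factors were also measured. Of 25 tested, 10 were called higher and 10 lower by limma, with a median log2 change of -0.02. All genes tested gave 32.2% higher and 35.0% lower. Tcfcp2, another CP2-family gene, rose from 4.77 ± 0.204 to 9.89 ± 0.189 RPKM (± SD, n = 2 per group; log2 change 0.98, limma adjusted p = 4.14e-06). Esrra, the estrogen-related receptor that promotes mitochondrial genes, fell from 5.55 ± 0.122 to 1.87 ± 0.261 RPKM (± SD, n = 2 per group; log2 change -1.36, limma adjusted p = 2.51e-06), while Esrrb was not called. Tbx4, a limb T-box factor gene, rose from 0.263 ± 0.0291 to 1.74 ± 0.113 RPKM (± SD, n = 2 per group; log2 change 1.55), and it passed the filter through its level after Hnrnpk siRNA, as Klf1, called lower, did through its control level. Klf6 and Yy2, a retroposed relative of Yy1 and Zfp42, rose with log2 changes of 0.77 each, and the highest limma adjusted p of these 5 genes was 3.45e-05.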
